A study of Mus musculus with 4 samples.

Results

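The skeletal muscle contractile and stress genes are 42 gene symbols chosen by name for their place in the contractile machinery, the energy supply or the stress response of striated muscle. All 42 were found among the 24346 symbols measured by RNA sequencing of mouse dorsal skin. The skin came from male C57BL/6 mice that were 8 weeks old when the diet began. Every mouse received the nonalcoholic steatohepatitis (NASH) diet, which is rich in fat, sugar, cholesterol and bile salt, for 3 weeks and then imiquimod (IMQ) cream, which sets off psoriasis-like dermatitis, for 1 day. In the 7KC-IMQ group (2 libraries) the diet also held 7-ketocholesterol (7KC), an oxidized form of cholesterol, and in the Cont-IMQ group (2 libraries) it did not. The comparison asks how skin under IMQ differs when the diet holds 7KC, and it has no skin without IMQ or without the NASH diet. Levels are FPKM, fragments per kilobase of exon scaled to the mapped fragments of a library, so that genes of different length can be set side by side. Read numbers estimated from the steps between low values lay between 15000000 and 16300000 per library. Pairs of values are given with replicate 1 before replicate 2. The sample labels do not say whether the libraries of a group came from separate animals, so p-values measure only the spread between these libraries, which may be technical.

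Mouse skin, unlike most human skin, has a thin sheet of striated muscle beneath it, the panniculus carnosus, which twitches the skin and is built almost wholly of fast fibers. A fiber contracts when myosin heavy chains pull on actin filaments, under the control of troponin and of calcium released from the sarcoplasmic reticulum. Fibers of different speed use different myosin and troponin genes, while titin, nebulin, skeletal actin and the calcium channels are shared. A further set of genes, among them the muscle ankyrin repeat genes and the muscle LIM protein gene, is known to be induced by stretch, injury and remodeling. Some of them are also expressed in unstressed muscle, and no sample here shows their resting level.

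Genes of that stress set were lower in mean in 7KC-IMQ skin: Ankrd1, Ankrd2, Csrp3, Xirp1 and Xirp2 had 7KC-IMQ means of 0.203 to 0.462 times their Cont-IMQ means. Within the fast myosin heavy chains, Myh4 was 4.03 times as high in mean in 7KC-IMQ skin and Myh1 was 0.614 times as high, while their sum with Myh2 and Myh7 was 837 FPKM in mean in Cont-IMQ and 848 FPKM in 7KC-IMQ. Most other fast fiber genes differed little, and the 4 slow fiber members were near 0 in every library. The 42 genes together made up 2.16 and 2.09% of all FPKM in Cont-IMQ and 1.70 and 1.89% in 7KC-IMQ, so striated muscle genes were well expressed in every one of these skin samples. In such bulk samples, fewer muscle fibers and less RNA per fiber cannot be told apart.

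A mean of at least 0.1 FPKM over the 4 libraries was required for testing, and 40 of the 42 genes met it; Myh7 and Myh3 did not. Fold changes are differences of log2(FPKM + 1), 7KC-IMQ minus Cont-IMQ, which understate the difference of low genes. No member passed an adjusted p of 0.05 in limma (2 libraries against 2), with 0.331 for Ankrd1 as the lowest value, and 1 of 15896 genes (0.00629%) did. That gene, Mir24-2, a microRNA gene singled out after its values were seen, had 549 and 555 FPKM in Cont-IMQ and was listed at 0 in both 7KC-IMQ libraries. A listed 0 can be a failed estimate, as described for Myh7 below, so these values do not establish a difference in its level. At an unadjusted limma p under 0.05, 8 of 40 members were lower, against 869 of 15896 genes (5.47%), and 2 were higher, against 1192 (7.50%). The 8 were Ankrd1, Ankrd2, Csrp3, Xirp1, Xirp2, Myh1, Des and Neb, and the 2 were Myh4 and Mybpc2. Without 7KC-IMQ replicate 1 the lower count was 5, and without either of the Cont-IMQ libraries the higher count was 4. Rescaling every library to the same FPKM sum turned the split over all genes to 1230 lower and 638 higher, and that of the members to 12 lower and 1 higher.

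Counted without a test, 13 of 40 members were lower in 7KC-IMQ skin with no overlap between the groups, beside 22.9% of all genes tested, and 5 were higher with no overlap, beside 23.9%. The median log2 fold change was -0.12 over the 40 members and -0.006 over all genes tested. By group it was -1.23 for the stress and remodeling genes, -0.38 for the shared sarcomere and excitation genes, 0.15 for the fast fiber genes, 0.14 for the energy genes, 0.08 for the slow fiber genes and 0.05 for the developmental and cardiac isoforms. Leaving out 1 library requires fewer values to separate, and the shares of 22.9 and 23.9% of all genes do not apply then. Shares of all genes in those settings are not given here, so the next counts are not read as a result about the members. The higher count was then 12 without Cont-IMQ replicate 1, 9 without Cont-IMQ replicate 2 and 13 without 7KC-IMQ replicate 1, and the lower count was 22 without Cont-IMQ replicate 2 and 22 without 7KC-IMQ replicate 2. The sign of the smaller medians also rested on single libraries. The slow fiber median was -0.22 and that of the developmental and cardiac isoforms -0.06 without Cont-IMQ replicate 1, and the energy median was -0.16 without Cont-IMQ replicate 2. Without 7KC-IMQ replicate 2, the energy, isoform and fast fiber medians were -0.065, -0.024 and -0.001.

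**Figure D1:**
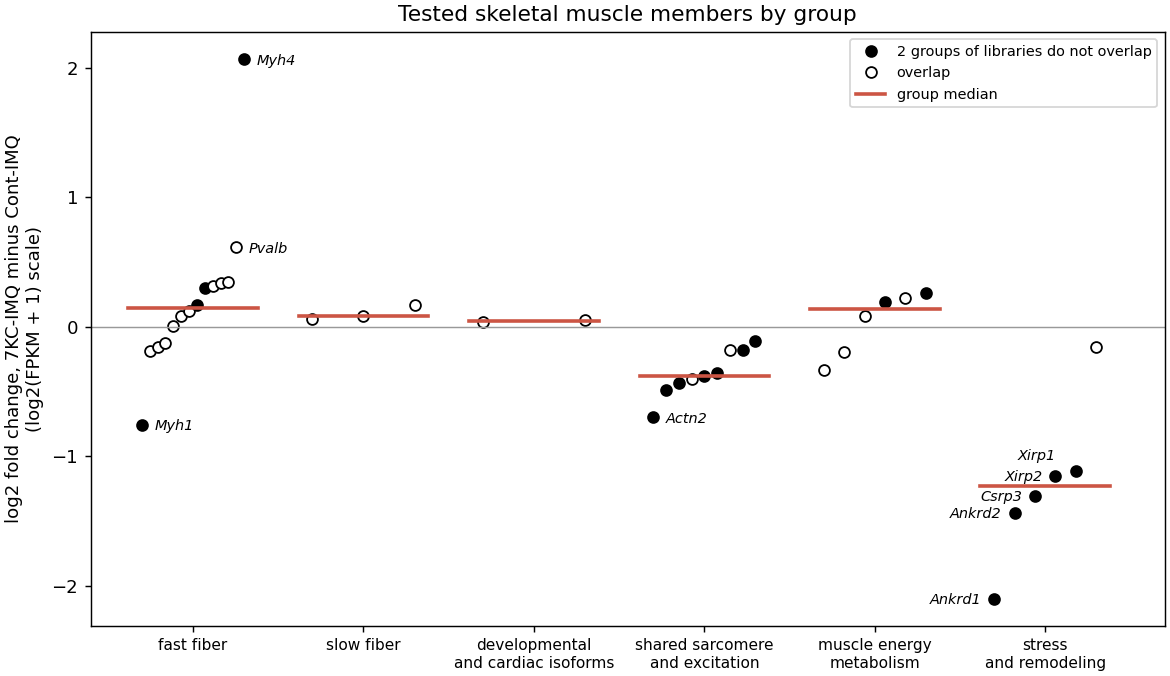
Each point is 1 of the 40 tested members, placed by its group and by its log2 fold change on the log2(FPKM + 1) scale (7KC-IMQ minus Cont-IMQ, 2 libraries each); filled points have no overlap between the groups and red lines are group medians. 5 stress genes lie between -2.10 and -1.11, Myh4 lies at 2.07 and Myh1 at -0.76, and most other points lie near 0.

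The stress and remodeling genes are 6. Ankrd1, a muscle ankyrin repeat protein that binds titin and also enters the nucleus, had 24.9 and 42.5 FPKM in Cont-IMQ and 7.24 and 6.47 FPKM in 7KC-IMQ. Both Cont-IMQ libraries were high, both 7KC-IMQ libraries were low and close to each other, and the groups did not overlap. Its mean was 33.7 ± 12.4 FPKM in Cont-IMQ and 6.86 ± 0.550 FPKM in 7KC-IMQ (SD, n = 2), a log2 fold change of -2.10 ± 0.26 (SE) with a limma adjusted p = 0.331. Of the 15896 genes tested, 10 had a lower log2 fold change. At the estimated depth these levels stand for at most about 692 and 1167 reads in Cont-IMQ and 215 and 177 reads in 7KC-IMQ. At the longest transcript length, a counting floor of 3 reads would stand for 0.101 to 0.110 FPKM in these libraries. A shorter transcript would raise that floor, so the exact margin above it is not known.

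Ankrd2, the related ankyrin repeat gene of stretched skeletal muscle, had 202 and 188 FPKM in Cont-IMQ and 54.6 and 93.5 FPKM in 7KC-IMQ. The groups were far apart, with the 7KC-IMQ libraries further from each other than the Cont-IMQ libraries were. Its log2 fold change was -1.43 ± 0.26 (SE) with a limma adjusted p = 0.352. Csrp3, which encodes the muscle LIM protein of the Z-disc, had 411 and 491 FPKM in Cont-IMQ and 149 and 219.8 FPKM in 7KC-IMQ, the highest levels of the 6 genes. Both 7KC-IMQ values lay below both Cont-IMQ values, and the log2 fold change was -1.31 ± 0.21 (SE) with a limma adjusted p = 0.352.

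The Xin repeat proteins bind actin filaments and gather where fibers are being repaired. Xirp1 had 36.5 and 36.1 FPKM in Cont-IMQ and 21.0 and 12.5 FPKM in 7KC-IMQ. Xirp2 had 51.8 and 72.9 FPKM in Cont-IMQ and 24.2 and 30.6 FPKM in 7KC-IMQ. Neither gene overlapped between the groups, and the log2 fold changes were -1.11 ± 0.24 (SE) and -1.15 ± 0.20 (SE), with limma adjusted p = 0.354 and 0.352. Trim63, the ubiquitin ligase MuRF1 that marks muscle atrophy, went apart from these 5: it had 116 and 133 FPKM in Cont-IMQ and 124 and 99.4 FPKM in 7KC-IMQ. Its groups overlapped, its log2 fold change was -0.15 ± 0.14 (SE) with a limma adjusted p = 0.675, and without 7KC-IMQ replicate 2 the log2 fold change was 0.0037. No 75-base stretch of the transcripts of these 6 genes occurs in another annotated gene, and of the 6 only Xirp2 has exons overlapped by a gene on the opposite strand, Gm13601.

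**Figure D2:**
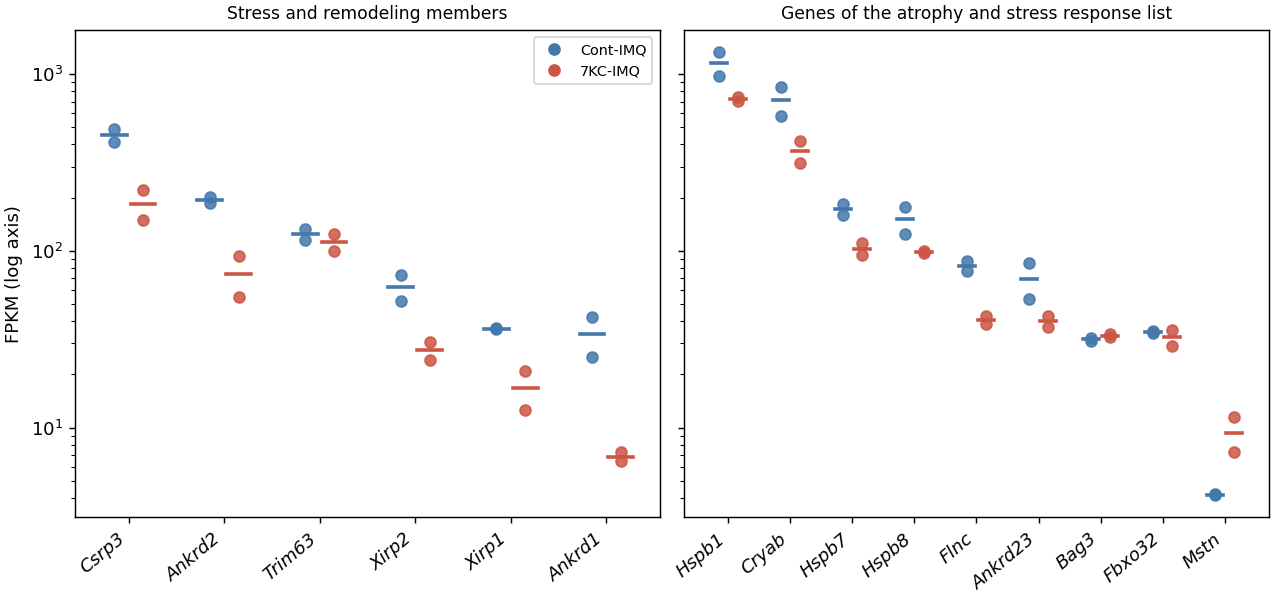
Points give FPKM on a log axis in each of the 4 libraries and short lines the mean of each group (n = 2), for the 6 stress and remodeling members and for 9 genes of the atrophy and stress response list. Ankrd1, Ankrd2, Csrp3, Xirp1 and Xirp2 do not overlap between the groups, Trim63 and Fbxo32 do, and Mstn is the gene in which the 7KC-IMQ points lie clearly above.

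To set the stress genes beside other muscle genes of the same library, each was also expressed relative to the mean log2(FPKM + 1) of the 9 shared sarcomere and excitation genes of its own library. That reference was 6.28 and 6.27 in Cont-IMQ and 5.74 and 6.09 in 7KC-IMQ. Relative to it, Ankrd1 stood at -1.58 and -0.83 in Cont-IMQ and at -2.70 and -3.19 in 7KC-IMQ. The difference of group means was -1.74 for Ankrd1, -1.08 for Ankrd2, -0.95 for Csrp3, -0.79 for Xirp2 and -0.76 for Xirp1, each without overlap, and 0.20 for Trim63 with overlap. An exact two-sided permutation test gave p = 0.333 for each of the 5 genes without overlap, which is the smallest p that 2 against 2 libraries allow, and p = 1.0 for Trim63. The median of the 6 differences was -0.87, and it was -1.45 with the 14 fast fiber genes as the reference in place of the shared genes. Thus 5 stress genes were lower in 7KC-IMQ skin by more than the mean of the shared genes, but by different margins when 1 library was left out. Without 7KC-IMQ replicate 2 the difference was -0.23 for Xirp1, and without 7KC-IMQ replicate 1 it was -1.28 for Xirp1 and -0.13 for Trim63. Whether the amount of muscle differed between the samples was not tested.

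Promoters are shown for stress genes that were low together in 7KC-IMQ skin (Ankrd1, Ankrd2 and Csrp3) and for the 2 myosin heavy chain genes that differed in opposite directions (Myh1 and Myh4). The sequences are from RefSeq (GRCm38.p6) and run from 250 bases before to 50 bases after the start site, in the direction of transcription. Capitals mark matches on either strand to the E-box CANNTG, bound by myogenic factors, to the M-CAT box CATTCC, bound by TEAD factors, to TATAAA and to the MEF2 and CArG motifs. The Ankrd1 window is chr19:36119795-36120094 (minus strand), the Ankrd2 window chr19:42035777-42036076 (plus strand), the Csrp3 window of the outer of its 2 start sites chr7:48848002-48848301 (minus strand), the Myh1 window chr11:67199852-67200151 (plus strand) and the Myh4 window chr11:67237562-67237861 (plus strand).
Ankrd1: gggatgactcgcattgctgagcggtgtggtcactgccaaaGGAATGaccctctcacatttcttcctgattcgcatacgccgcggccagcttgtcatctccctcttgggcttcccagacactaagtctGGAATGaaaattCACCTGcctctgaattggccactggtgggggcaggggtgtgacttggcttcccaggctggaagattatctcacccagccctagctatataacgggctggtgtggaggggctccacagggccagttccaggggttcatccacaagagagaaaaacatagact
Ankrd2: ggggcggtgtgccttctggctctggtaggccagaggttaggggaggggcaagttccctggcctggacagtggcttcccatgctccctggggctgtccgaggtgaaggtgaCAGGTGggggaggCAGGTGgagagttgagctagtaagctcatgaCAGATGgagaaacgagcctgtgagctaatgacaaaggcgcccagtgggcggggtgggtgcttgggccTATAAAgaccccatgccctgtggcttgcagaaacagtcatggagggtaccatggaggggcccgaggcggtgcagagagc
Csrp3: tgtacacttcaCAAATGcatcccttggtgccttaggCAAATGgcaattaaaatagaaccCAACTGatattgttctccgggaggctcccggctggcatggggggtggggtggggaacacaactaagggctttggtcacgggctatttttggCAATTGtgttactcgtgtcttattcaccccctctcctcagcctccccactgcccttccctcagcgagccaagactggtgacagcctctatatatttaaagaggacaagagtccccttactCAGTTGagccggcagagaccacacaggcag
Myh1: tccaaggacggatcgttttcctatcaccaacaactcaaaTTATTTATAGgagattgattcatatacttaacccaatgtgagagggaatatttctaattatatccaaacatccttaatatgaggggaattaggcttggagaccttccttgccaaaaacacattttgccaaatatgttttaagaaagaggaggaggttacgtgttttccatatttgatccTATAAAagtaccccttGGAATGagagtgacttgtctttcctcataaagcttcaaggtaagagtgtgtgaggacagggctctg
Myh4: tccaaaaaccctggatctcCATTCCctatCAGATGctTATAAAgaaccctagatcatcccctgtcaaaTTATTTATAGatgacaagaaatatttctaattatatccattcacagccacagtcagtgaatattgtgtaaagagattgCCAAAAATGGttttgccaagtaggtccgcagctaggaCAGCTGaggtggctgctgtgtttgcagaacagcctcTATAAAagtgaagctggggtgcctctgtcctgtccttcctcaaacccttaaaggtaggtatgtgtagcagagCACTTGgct

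In the Ankrd1 window the M-CAT box was found 2 times, on the reverse strand at bases -210 to -205 and -123 to -118 from the start site, and an E-box lay at -111 to -106. The Ankrd2 window held 3 E-boxes and TATAAA at -29 to -24, and the Csrp3 window held 5 E-boxes. Among the 6 stress genes, 5 had a promoter in the table; all 5 held an E-box, 2 an M-CAT box (Ankrd1 and Trim63) and 1 the MEF2 motif (Xirp2). The Myh1 and Myh4 windows both held TATAAA close to the start site, at -32 to -27 and -31 to -26, and both held a MEF2 match that overlaps TATAAA on the reverse strand. An M-CAT box was found in both as well, at -16 to -11 in Myh1 and at -231 to -226 in Myh4. E-boxes were found 3 times in the Myh4 window, which also held a CArG motif at -104 to -95, and not in the Myh1 window.

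Over all 42 members, 34 had 40 promoters in the table. An E-box was found in 36 of the 40 (90.0%) and in 72.3% of all 32851 promoters of the table, and an M-CAT box in 13 (32.5%) and 14.7%. The TATAAA letters were found in 11 (27.5%) and 13.6%, the MEF2 motif in 7 (17.5%) and 3.19%, and the CArG motif in 4 (10.0%) and 1.63%. A match describes the letters of these windows and does not show that a factor binds there.

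**Figure D3:**
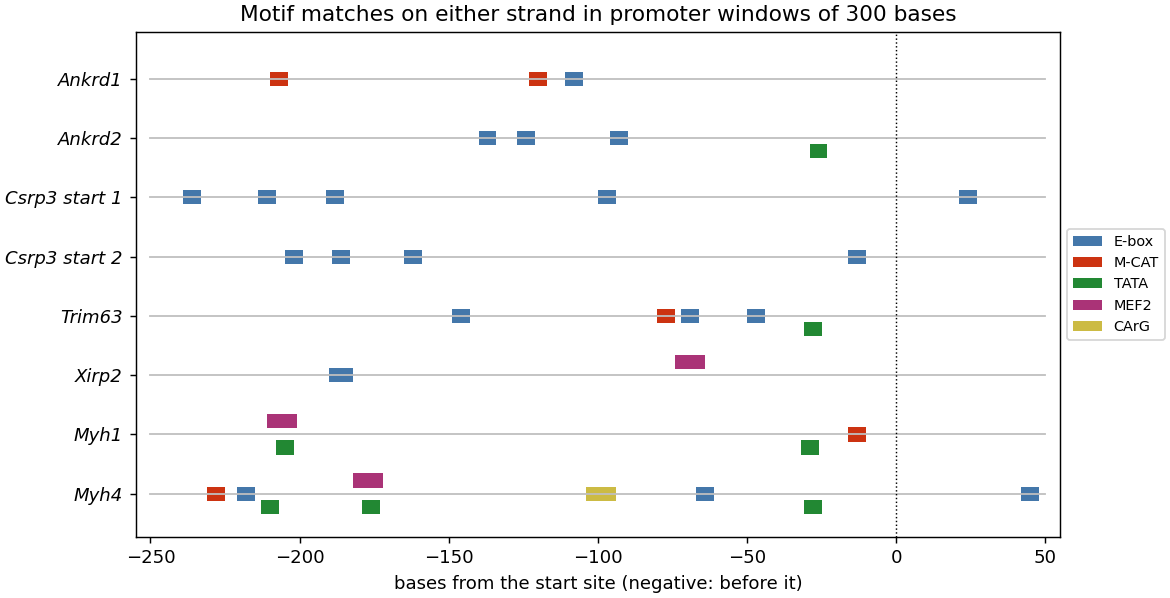
Boxes mark where each motif matched, on either strand, along promoter windows from 250 bases before to 50 bases after the start site, for 5 stress genes (2 start sites for Csrp3) and for Myh1 and Myh4. TATAAA matches lie close to the start in Ankrd2, Trim63, Myh1 and Myh4, and the 2 M-CAT boxes of Ankrd1 lie at -210 and -123.

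The fast fiber genes are 14, and the myosin heavy chains among them held their largest differences. Myh4, the myosin of the fastest type IIb fibers, had 125 and 62.9 FPKM in Cont-IMQ and 427 and 329 FPKM in 7KC-IMQ. Both 7KC-IMQ libraries lay well above both Cont-IMQ libraries. The means were 93.9 ± 43.8 and 378 ± 69.0 FPKM (SD, n = 2), and the log2 fold change was 2.07 ± 0.35 (SE) with a limma adjusted p = 0.352. Myh1, the myosin of type IIx fibers, had 695 and 753 FPKM in Cont-IMQ and 322 and 568 FPKM in 7KC-IMQ. It was lower in 7KC-IMQ skin without overlap, with a wide spread between the 7KC-IMQ libraries and a log2 fold change of -0.76 ± 0.28 (SE) (limma adjusted p = 0.381). Without 7KC-IMQ replicate 1 it was -0.35, and without 7KC-IMQ replicate 2 it was -1.16. Myh2, the myosin of type IIa fibers, had 15.6 and 22.2 FPKM in Cont-IMQ and 16.5 and 33.0 FPKM in 7KC-IMQ. Its groups overlapped, and its log2 fold change of 0.32 turned to -0.16 without 7KC-IMQ replicate 2.

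Within the summed FPKM of the 4 adult heavy chains Myh1, Myh2, Myh4 and Myh7, the share of Myh4 was 14.9 and 7.50% in Cont-IMQ and 55.8 and 35.4% in 7KC-IMQ. Thus Myh1 was the most abundant heavy chain in both Cont-IMQ libraries and in 7KC-IMQ replicate 2, and Myh4 in 7KC-IMQ replicate 1. The mean share was 11.2 ± 5.26% in Cont-IMQ and 45.6 ± 14.4% in 7KC-IMQ (SD, n = 2), a difference of 34.4 percentage points with p = 0.333 in the exact two-sided permutation test, the smallest this design allows. Leaving out 1 library gave differences from 24.2 points, without 7KC-IMQ replicate 1, to 44.5 points, without 7KC-IMQ replicate 2. The ratio of Myh1 to Myh4 was 5.57 and 12.0 in Cont-IMQ and 0.755 and 1.72 in 7KC-IMQ. The summed level itself was 835 and 838 FPKM in Cont-IMQ and 766 and 929.9 FPKM in 7KC-IMQ. Thus the groups overlapped in the total (exact permutation p = 1.0 for the sum) and not in the shares of Myh1 and Myh4. The share of Myh2 overlapped, at 1.87 and 2.65% in Cont-IMQ and 2.16 and 3.55% in 7KC-IMQ.

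**Figure D4:**
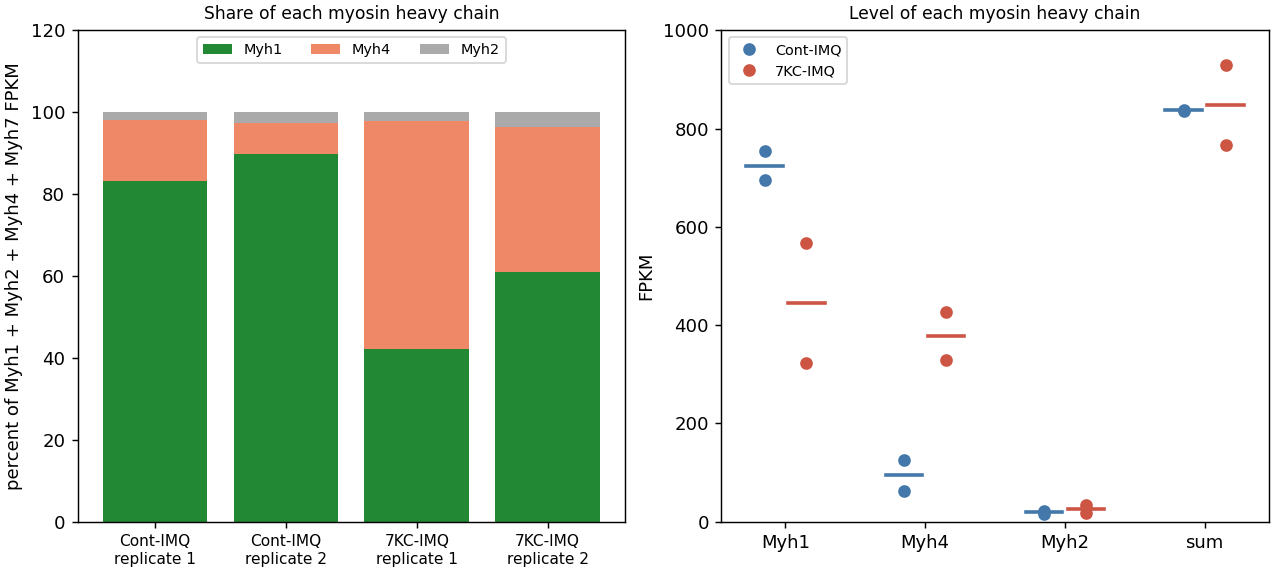
Bars on the left give the percent of the summed Myh1, Myh2, Myh4 and Myh7 FPKM taken by each gene in each library (Myh7 is listed at 0), and points on the right give the FPKM of each gene and of the sum, with lines at the group means (n = 2). Myh4 takes 14.9 and 7.50% in the Cont-IMQ libraries and 55.8 and 35.4% in the 7KC-IMQ libraries, while the sums of the groups overlap.

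The heavy chain genes stand side by side on chromosome 11 of GRCm38 in the order Myh3, Myh2, Myh1, Myh4 and Myh8, between bases 67078300 and 67308634, and share much sequence. The coding sequences of Myh1 and Myh4 were identical at 90.2% of 5820 aligned bases, those of Myh1 and Myh2 at 91.1% and those of Myh4 and Myh7 at 77.6%. Of the 75-base stretches of their transcripts, 15.8% for Myh1, 13.9% for Myh2 and 9.68% for Myh4 also occur in another gene. Part of their reads could therefore have been assigned to either gene. Myh1 shared most with Myh2, at 11.9% of the stretches of Myh1, and 4.90% of the stretches of Myh4 also occur in Myh1. Myh1 is also overlapped by Myhas on the opposite strand, and without a stated strand setting reads of the 2 genes cannot be told apart.

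The other 12 fast fiber genes, Myh2 among them, had log2 fold changes from -0.19 to 0.62, and 10 of the 12 overlapped between the groups. The 3 fast troponin genes had the highest levels of the fast fiber genes. Tnnt3, which binds the complex to tropomyosin, had 1762 and 1530.2 FPKM in Cont-IMQ and 1314 and 1583 FPKM in 7KC-IMQ. Tnni2, the inhibitory subunit, had 1413 and 1285 and 1127 and 1304 FPKM, and Tnnc2, the calcium sensor, 1211 and 952 and 896 and 1088 FPKM in the same order. All 3 overlapped between the groups, with log2 fold changes of -0.19, -0.15 and -0.12. Pvalb, the calcium buffer of fast fibers, had 221 and 85.1 FPKM in Cont-IMQ and 214 and 208 FPKM in 7KC-IMQ. Cont-IMQ replicate 2 alone was low, and without it the log2 fold change of 0.62 turned to -0.07.

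Mybpc2, the fast myosin-binding protein C, and Myoz1, a calcineurin-binding protein of the Z-disc, were the 2 genes of the 12 without overlap, both higher, beside 23.9% of all genes tested. Mybpc2 had 68.8 and 69.5 FPKM in Cont-IMQ and 87.1 and 84.0 FPKM in 7KC-IMQ. Myoz1 had 103 and 98.1 FPKM in Cont-IMQ and 108 and 119 FPKM in 7KC-IMQ. The differences were small, with log2 fold changes of 0.30 and 0.17, and Myoz1 was at 0.096 without 7KC-IMQ replicate 2. The remaining fast genes were Actn3, the fast alpha-actinin, Myl1 and Mylpf, the myosin light chains, Atp2a1, the calcium pump, and Casq1, the calcium store of the reticulum. Their log2 fold changes were 0.34, 0.12, 0.01, 0.09 and 0.35, all with overlap.

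The 4 slow fiber members were near 0. Myh7, the slow myosin heavy chain, was listed at 0 in all 4 libraries; a listed 0 can be a failed estimate, since the ribosomal protein gene Rpl26 was listed at 0 in Cont-IMQ replicate 2 and at 7.23, 10.3 and 3.67 FPKM in the others. Tnnt1, the slow troponin T, had 0.829 and 1.92 FPKM in Cont-IMQ and 1.78 and 1.45 FPKM in 7KC-IMQ. Tnni1, the slow troponin I, had 0.235 and 0.951 and 0.880 and 0.398 FPKM, and Tnnc1, which serves slow fibers and heart, 0.132 and 0 and 0 and 0.268 FPKM. All 3 overlapped between the groups, and Tnnc1 stood for at most about 2.1 reads in any library. The 4 slow genes together made up from 0.0151 to 0.0415% of the summed fast and slow fiber FPKM.

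The embryonic and perinatal myosin heavy chains Myh3 and Myh8, which return in regenerating fibers, and the cardiac actin Actc1 were also low. Myh3 was at most 0.0339 FPKM and was listed at 0 in 7KC-IMQ replicate 2. Its 7KC-IMQ values lay below its Cont-IMQ values, but at most about 3 reads stood behind any of them, so a difference was not detectable at this depth. Myh8 lay between 0.240 and 0.528 FPKM and Actc1 between 0.154 and 0.390 FPKM. Both overlapped between the groups, with log2 fold changes of 0.04 and 0.05.

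The 9 shared sarcomere and excitation genes all had a lower mean in 7KC-IMQ skin, beside 8157 of 15896 genes tested with a negative log2 fold change. Of the 9, 7 were lower without overlap, beside 22.9% of all genes tested. Acta1, the skeletal muscle actin and the highest member of all, had 2848 and 3133 FPKM in Cont-IMQ and 2106 and 2583 FPKM in 7KC-IMQ. Its means were 2991 ± 202 and 2344 ± 338 FPKM (SD, n = 2), without overlap, with a log2 fold change of -0.36 ± 0.16 (SE) and a limma adjusted p = 0.436. Des, the intermediate filament that ties the Z-discs together, had 356 and 410.1 FPKM in Cont-IMQ and 272 and 318 FPKM in 7KC-IMQ, with a log2 fold change of -0.38 ± 0.12 (SE). Actn2, the Z-disc alpha-actinin, had 135 and 182 and 76.3 and 122 FPKM, and Ttn, the elastic giant titin, 13.6 and 12.4 and 7.44 and 10.9 FPKM in the same order. For both genes 7KC-IMQ replicate 1 was the lowest library, and the log2 fold changes were -0.70 and -0.49. Without that library the log2 fold changes of Acta1, Actn2 and Ttn were -0.21, -0.36 and -0.24, and without 7KC-IMQ replicate 2 that of Ttn was -0.73. In that last setting Actn2 was at -1.03, beyond the stress gene Xirp1 at -0.76.

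Neb, which spans the thin filament, was also without overlap at -0.43, as were the channels of excitation-contraction coupling, Ryr1 at -0.11 and Cacna1s at -0.18. Without 7KC-IMQ replicate 1 these 3 were at -0.24, -0.055 and -0.061. The M-band genes Myom1 and Myom2 overlapped, at -0.18 and -0.40. In all 9 genes 7KC-IMQ replicate 1 had the lowest value of the 4 libraries, and without it the median log2 fold change of the group was -0.21 in place of -0.38.

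The energy genes supply the fiber with fuel and oxygen, and their log2 fold changes ran from -0.33 to 0.26. Of the 6, 2 were higher without overlap and none was lower without overlap, beside 23.9 and 22.9% of all genes tested. Ckm, the muscle creatine kinase, had 799.9 and 723 FPKM in Cont-IMQ and 825 and 915 FPKM in 7KC-IMQ, and Ampd1, the muscle AMP deaminase, had 6.07 and 8.41 and 9.06 and 8.53 FPKM. Their log2 fold changes were 0.19 ± 0.11 (SE) and 0.26 ± 0.16 (SE), with limma adjusted p = 0.527 and 0.550. Both rested in part on 1 library: Ckm was at 0.12 without 7KC-IMQ replicate 2 and without Cont-IMQ replicate 2, and Ampd1 at 0.058 without Cont-IMQ replicate 1 and 0.47 without Cont-IMQ replicate 2. Mb, the oxygen store myoglobin, was spread widely within both groups, at 309 and 143 FPKM and 189.8 and 316 FPKM. Pygm, which breaks down glycogen, and the glycolytic enzymes Eno3 and Pgam2 overlapped as well, at 0.08, -0.19 and -0.33. Unlike the shared sarcomere genes, then, the energy and fast fiber groups did not have lower medians in 7KC-IMQ skin in these libraries. That difference between the groups of genes was not tested.

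Other genes were taken from 6 lists grouped by function, of which the last, YAP and TEAD targets, is not particular to muscle. Of 19 genes of the atrophy and stress response list, 7 were lower and 4 were higher without overlap, shares that can be read beside the 22.9 and 23.9% of all genes tested, and none passed an adjusted p of 0.05 in limma. At an unadjusted limma p under 0.05, 6 were lower and 1 was higher, beside 5.47 and 7.50% of all genes tested. Flnc, the actin cross-linker filamin C that holds damaged Z-discs, had 76.8 and 87.6 FPKM in Cont-IMQ and 42.9 and 38.7 FPKM in 7KC-IMQ. It was lower without overlap, with a log2 fold change of -0.99 ± 0.10 (SE) and a limma adjusted p = 0.303. The small heat shock proteins Cryab and Hspb1, chaperones that other cells make too, were the most abundant genes of the list. Cryab had 579.6 and 849 FPKM in Cont-IMQ and 315 and 417 FPKM in 7KC-IMQ, and Hspb1 had 974 and 1328 and 740.2 and 703 FPKM. Neither overlapped, with log2 fold changes of -0.95 and -0.66.

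The muscle chaperones Hspb7 and Hspb8 and Ankrd23, a further member of the muscle ankyrin repeat family, were also lower without overlap, at -0.74, -0.59 and -0.76. Without Cont-IMQ replicate 2, Hspb1 and Hspb8 were at -0.43 and -0.34, and without Cont-IMQ replicate 1, Ankrd23 was at -0.43. Mstn, the secreted inhibitor of muscle growth myostatin, went the other way, with 4.19 and 4.15 FPKM in Cont-IMQ and 11.4 and 7.25 FPKM in 7KC-IMQ. Both 7KC-IMQ libraries were above both Cont-IMQ libraries, and the log2 fold change was 0.97 ± 0.21 (SE) with a limma adjusted p = 0.354. Fbxo32, the atrophy ligase atrogin-1, had 35.2 and 34.5 FPKM in Cont-IMQ and 35.7 and 29.1 FPKM in 7KC-IMQ and overlapped like Trim63, so that the common atrophy ligases did not separate the groups.

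A list of 29 further muscle genes measured held 24 of the sarcomere and triad, 4 mitochondrial genes and a chaperone gene, a split made after the values were seen. Of the 24, 12 were lower and none was higher without overlap, beside 22.9 and 23.9% of all genes tested, and the median log2 fold change was -0.23. Of the other 5 genes, 3 were lower without overlap. The tropomyosins Tpm1 and Tpm2, the most abundant, overlapped at -0.11 and -0.003, as did Tcap, which caps titin, at 0.03. Fhl1, a LIM protein of the sarcomere, had 297 and 344 FPKM in Cont-IMQ and 167 and 217 FPKM in 7KC-IMQ, and its log2 fold change of -0.75 was the lowest of the list. Among 8 further fast fiber genes, 2 were higher and 1 was lower without overlap, beside the same 23.9 and 22.9%. Pfkm, the muscle phosphofructokinase, was at -0.30, Mylk2, the skeletal myosin light chain kinase, at 0.07 and its relative Mylk4 at 0.73, all with overlap. Mylk4 was at 0.30 without 7KC-IMQ replicate 2 and at 1.16 without 7KC-IMQ replicate 1.

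Of 9 further slow fiber genes, 8 were tested, and 4 were higher and 3 lower without overlap, beside 23.9 and 22.9% of all genes tested. Tpm3, the slow tropomyosin that other cells use too, had 157 and 149 FPKM in Cont-IMQ and 174 and 182 FPKM in 7KC-IMQ, and Atp2a2, the calcium pump of slow fibers and of many other cells, had 90.8 and 90.5 and 99.6 and 119 FPKM. Both were higher in 7KC-IMQ skin, at 0.22 and 0.26. Mybpc1, the slow myosin-binding protein C, had 132 and 176 FPKM in Cont-IMQ and 95.3 and 119 FPKM in 7KC-IMQ, and Myoz2, a Z-disc protein of slow fibers and heart, had 27.8 and 40.4 and 13.5 and 23.7 FPKM. Both were lower, at -0.52 and -0.87, as was the thin filament gene Lmod2, at -0.32. Without Cont-IMQ replicate 2, Mybpc1 was at -0.31 and Lmod2 at -0.096, and without 7KC-IMQ replicate 1, Myoz2 was at -0.49. Lmod2 was at -0.55 without Cont-IMQ replicate 1, and Atp2a2 at 0.13 without 7KC-IMQ replicate 2. The other 2 higher genes were the slow myosin light chains, at low levels. Myl2, which the ventricle of the heart also uses, had 0.154 and 0 FPKM in Cont-IMQ and 1.01 and 0.940 FPKM in 7KC-IMQ, with a log2 fold change of 0.88 ± 0.12 (SE) and a limma adjusted p = 0.331. Myl3 was listed at 0 in both Cont-IMQ libraries and had 0.353 and 0.192 FPKM in 7KC-IMQ. These levels stand for at most about 11.3 and 9.71 reads of Myl2 and 5.33 and 2.66 reads of Myl3 in 7KC-IMQ, so the list did not move in 1 direction and its largest difference upward rested on few reads.

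Genes of the muscle lineage and of the junction of nerve and muscle reached at most 28.3 FPKM. Of 18 such genes measured, 15 were tested, 8 were lower and 1 was higher without overlap, beside 22.9 and 23.9% of all genes tested, and the median log2 fold change was -0.11. Myf6, the myogenic factor of mature fibers, had 17.8 and 16.5 FPKM in Cont-IMQ and 11.3 and 14.1 FPKM in 7KC-IMQ, and Mef2a, the factor that binds the MEF2 motif, had 28.3 and 24.7 and 22.4 and 22.7 FPKM. Both were lower without overlap, at -0.41 and -0.22, with Myf6 at -0.26 without 7KC-IMQ replicate 1 and Mef2a at -0.13 without Cont-IMQ replicate 1. Tmem8c, needed for myoblast fusion, and Chrng, the fetal subunit of the acetylcholine receptor, were listed at 0 in all 4 libraries.

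Ankrd1 is also known as a target of YAP and TEAD, and of 20 genes on a list of such targets 6 were lower and 3 were higher without overlap, beside 22.9 and 23.9% of all genes tested. Their median log2 fold change was -0.03. These genes are not particular to muscle, and which cells of the skin their levels came from was not tested. Cyr61 and Ctgf are secreted matrix proteins and common readouts of YAP. Cyr61 had 87.3 and 169 FPKM in Cont-IMQ and 93.2 and 175 FPKM in 7KC-IMQ and differed more within the groups than between them. Ctgf had 23.0 and 22.4 FPKM and 14.4 and 21.8 FPKM and was lower without overlap, at -0.34, with 7KC-IMQ replicate 2 close to the Cont-IMQ libraries. Without 7KC-IMQ replicate 1 it was at -0.059. Ptpn14, a phosphatase that binds YAP, was lower at -0.48. Axl, a receptor kinase, was lower without overlap at -0.16, F3, the tissue factor of coagulation, lower at -0.61, and Wwc1, a regulator of the Hippo pathway, higher at 0.25 (0.13 without 7KC-IMQ replicate 2). None of the list was lower by 1 or more on the log2 scale, as Ankrd1 was. Of all genes tested, only 0.201% were lower by at least 1 without overlap, so this does not set the list apart. No gene of the last 5 lists passed an adjusted p of 0.05 in limma. At an unadjusted limma p under 0.05, 11 of the list of 29 further muscle genes were lower. These were 8 of the 24 sarcomere and triad genes and 3 of the other 5. At the same limit, 2 of the fast fiber genes were higher, and 3 of the slow fiber genes were higher and 2 lower. Of the lineage and YAP genes, 2 each were lower. These counts stand beside 5.47% of all genes tested lower and 7.50% higher.

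Markers of other cell types show what else the skin held. The 8 keratinocyte markers, led by Krt10 of the upper epidermis, summed to 24208 and 16286 FPKM in Cont-IMQ and 18717 and 20697 FPKM in 7KC-IMQ, with 1 of 8 higher and 2 lower without overlap (23.9 and 22.9% of all genes tested). Krt14 of the basal layer was higher without overlap at 0.29, and Krt15, of basal and follicle cells, was lower at -0.81. The 8 fibroblast markers, led by the proteoglycan gene Dcn, summed to 3427 and 2464 FPKM and 3197 and 2807 FPKM, with 1 of 8 higher and 1 lower without overlap. Dcn was at -0.23 and Pdgfra, a growth factor receptor, at 0.32, both without overlap, and the collagen gene Col1a1 overlapped at 0.27. These 2 sums overlapped between the groups.

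The 10 adipocyte markers summed to 1822 and 2716 FPKM in Cont-IMQ and 2625 and 2070.1 FPKM in 7KC-IMQ, and 3 of them were higher without overlap, beside 23.9% of all genes tested. Fabp4, a fatty acid carrier, and Cfd, adipsin, were the most abundant and overlapped, as did the fatty acid receptor Cd36, at -0.20. Lep, the hormone leptin, had 1.64 and 1.16 FPKM in Cont-IMQ and 9.75 and 3.70 FPKM in 7KC-IMQ. It was higher in both 7KC-IMQ libraries, with a log2 fold change of 1.58 ± 0.42 (SE) and a limma adjusted p = 0.356, and at 0.98 without 7KC-IMQ replicate 1.

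Smooth muscle and heart share some genes with skeletal muscle and were looked at for that reason. The 12 smooth muscle markers, led by Tagln, an actin-binding protein, summed to 107 and 139.7 FPKM in Cont-IMQ and 126 and 114 FPKM in 7KC-IMQ. Of these, 11 were tested, 10 overlapped and 1 was lower without overlap, beside 22.9% of all genes tested. Tagln was at -0.08, Smtn at 0.12 and Cnn1 at 0.28, while Synpo2, an actin-binding protein that skeletal muscle also makes, was lower without overlap at -0.62. Of the 10 heart markers, 5 were tested and 3 of these were lower without overlap, beside the same 22.9%. Myh6 was listed at 0 in all 4 libraries, and the list summed to 31.9 and 33.9 FPKM and 27.9 and 52.1 FPKM. Most of that sum was Nppb, a natriuretic peptide gene, with 25.2 and 28.6 FPKM and 23.0 and 48.4 FPKM, while the cardiac troponin gene Tnnt2 and the atrial light chain gene Myl4 were at most 2.53 and 2.13 FPKM.

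All 7 nerve and all 7 vessel markers had a lower mean in 7KC-IMQ skin, beside 8157 of the 15896 genes tested with a negative log2 fold change. The 7 nerve and Schwann cell markers, led by the myelin gene Pmp22, summed to 119 and 120.1 FPKM in Cont-IMQ and 115 and 105 FPKM in 7KC-IMQ, with 5 of 7 lower without overlap, beside 22.9% of all genes tested. Pmp22 and Mbp were at -0.07 and -0.08, and S100b, a calcium-binding protein of Schwann cells, at -0.46. The 7 endothelial and pericyte markers, led by Pecam1, summed to 56.4 and 61.7 FPKM and 49.4 and 47.9 FPKM, with 4 of 7 lower without overlap, beside the same 22.9%. Pecam1 and Cdh5, adhesion proteins of vessels, were at -0.31 and -0.09, and the angiopoietin receptor Tek at -0.52. None of the markers in these 2 lists, or of those of keratinocytes, fibroblasts and adipocytes, was listed at 0, and the nerve and vessel medians were -0.24 and -0.18. No marker of the 7 lists passed an adjusted p of 0.05 in limma, and at an unadjusted limma p under 0.05 3 endothelial, 2 keratinocyte, 1 nerve and 1 smooth muscle marker were lower and 2 adipocyte markers were higher, beside 5.47 and 7.50% of all genes tested. The part of other cell types in the differences of the muscle genes was not tested.

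**Figure D5:**
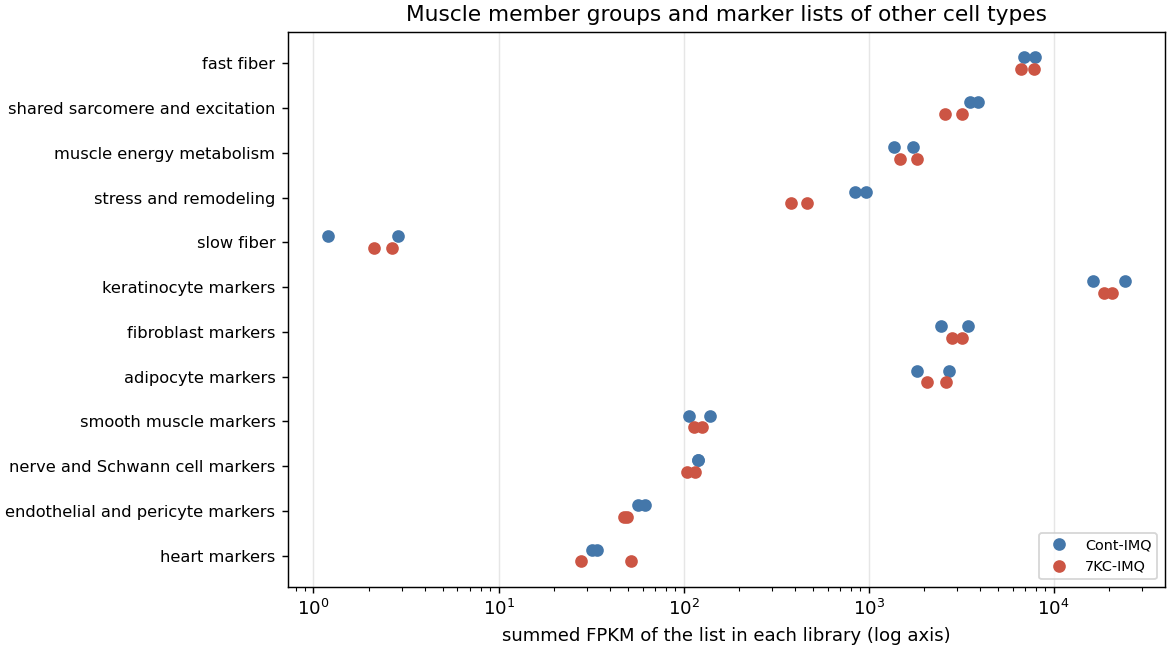
Points give the summed FPKM of each gene list on a log axis in each of the 4 libraries, for 5 of the muscle member groups and for 7 marker lists of other cell types. The stress genes sum to 842 and 963 FPKM in Cont-IMQ and 380.4 and 462 FPKM in 7KC-IMQ and the slow fiber members to less than 3 FPKM. The keratinocyte, fibroblast, adipocyte, smooth muscle and heart sums overlap between the groups. The nerve sums (119 and 120.1 against 115 and 105 FPKM) and the vessel sums (56.4 and 61.7 against 49.4 and 47.9 FPKM) are lower in 7KC-IMQ without overlap.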

How the data were processed

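Total RNA was isolated using a miRNeasy kit, and libraries were made with the TruSeq stranded mRNA kit. Per the submitters' notes, the authors mapped reads to mm10 with TopHat2 2.1.1, Bowtie2 2.2.8 and SAMtools 0.1.18 and computed FPKM with Cuffdiff 2.2.1. The paper gives other versions of the mapping tools and names Cufflinks for the FPKM. The deposited values are FPKM per gene symbol. Whether counting used strand is not given in the sources used here, so a gene and its antisense partner cannot be told apart. Members and lists were chosen with earlier results of these data known.

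From the FPKM, log2(FPKM + 1) was tested with limma 3.58.1 in R 4.3.3 (variance trend, Benjamini-Hochberg adjustment over the 15896 genes whose FPKM averaged 0.1 or more). The code was checked on simulated data with noise drawn independently for each gene and library. That check does not show how the p-values behave where genes share deviations of a library. Single values were compared by exact permutation. Depth was estimated from values closest to whole reads (within 0.1 read for 73.3 to 74.5% of low genes, where 20% would be so by chance), with 200 bases subtracted from transcript length, the best of 0, 100 and 200; it limits what low genes can show. All 42 members matched GENCODE M21 (GRCm38), and 34 matched RefSeq promoters. Coding sequences were aligned with Biopython 1.88.

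Library values were given for all stress and slow fiber genes, Myh1, Myh2, Myh4, Acta1, Ckm and Des, and, of other members, for the 3 highest and the 3 with the largest log2 fold change. Of each other list, the 2 highest genes and the largest difference in each direction (mean FPKM of at least 1) were named. Mybpc2, Myoz1, Mb, Ampd1, Fbxo32, Hspb7, Hspb8, Ankrd23, Tmem8c, Chrng, Myl2, Myl3, Lmod2, Ctgf and Ptpn14 were added after their values were seen. Alternatives were a pseudocount of 0.1, other filters and scalings, no variance trend, a replicate block and leaving out each library.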

Additional observations from a re-analysis of the deposited data

How the results depend on the processing

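The alternatives were run for the 40 tested members and for 53 genes of the other lists. Of 1106 values, 1053 kept their direction and their side of the threshold and 53 reversed, and none came past an adjusted p of 0.05 in limma. The reversals were in 30 genes, all of which overlapped between the groups; a gene without overlap cannot turn when a library is left out, so this is no sign of stability. With 1 library left out, 42 values reversed. The log2 fold changes then ranged from -0.16 to 0.79 for Myh2, -0.0004 to 0.25 for Myl1, -0.12 to 0.14 for Mylpf, -0.29 to 0.053 for Tnnc2, -0.066 to 1.30 for Pvalb, -0.058 to 0.23 for Atp2a1, -0.0006 to 0.70 for Casq1, -0.17 to 0.51 for Tnnt1, -0.27 to 0.39 for Tnni1 and -0.0078 to 0.25 for Tnnc1. They ranged from -0.11 to 0.19 for Myh8, -0.080 to 0.19 for Actc1, -0.33 to 0.78 for Mb, -0.038 to 0.20 for Pygm, -0.87 to 0.20 for Pgam2, -0.31 to 0.0037 for Trim63, -0.70 to 0.10 for Pfkm, -0.035 to 0.17 for Mylk2, -0.23 to 0.0021 for Tpm1 and -0.16 to 0.15 for Tpm2. For the rest they were -0.16 to 0.22 for Tcap, -0.40 to 0.54 for Cyr61, -0.53 to 0.37 for Tagln, -0.13 to 0.37 for Smtn, -0.21 to 0.83 for Nppb, -0.39 to 0.21 for Fabp4, -0.17 to 0.55 for Cfd, -0.11 to 0.65 for Col1a1, -0.64 to 0.24 for Krt10 and -0.25 to 0.033 for Fbxo32. The other 11 reversed on another scale. The same FPKM sum put Mylpf at -0.075, Pygm at -0.0003, Mylk2 at -0.011, Tcap at -0.054 and Cyr61 at -0.009, and quantile normalization put Mylpf at -0.12, Atp2a1 at -0.041, Pygm at -0.018, Mylk2 at -0.0079, Tcap at -0.078 and Cyr61 at -0.045. The cause was not tested. Of the 93 genes, 68 moved by over 1.5 times with 1 library left out, 27 of them among the 52 without overlap. Besides those given above, the log2 fold changes then nearest 0 were -0.25 for Myl4, 0.17 for Pdgfra, 0.17 for Krt14, -0.014 for Pmp22 and -0.19 for Pecam1, and, with overlap, 0.073 for Actn3, -0.05 for Tnnt3, -0.05 for Tnni2, -0.002 for Eno3, -0.03 for Myom1, -0.10 for Myom2, 0.04 for Cnn1, -0.04 for Cd36, -0.03 for Mbp and -0.02 for Cdh5. The log2 fold change of Ankrd1 ranged from -2.47 to -1.72, with limma adjusted p from 0.0836 to 0.969. Of 102 counts, medians and shares, 86 stayed within their limits and 16 moved.

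A pseudocount of 0.1 gave 2 genes past the adjusted threshold in limma in place of 1, and the cause was not tested. It also gave a slow fiber median of 0.31 in place of 0.08, since a smaller pseudocount widens differences of low genes. With the fast fiber genes as the reference, the median of the stress genes was -1.45 in place of -0.87. With a mean FPKM of at least 1, no gene of the developmental group was left. Scaling to the same FPKM sum made 34.2% of the unadjusted calls higher ones, against 57.8%, and the cause was not tested.

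Leaving out a library gave 1 to 11 genes past the threshold (11 without Cont-IMQ replicate 1, 5 without Cont-IMQ replicate 2), where the lone library is assumed to vary like the other group. Unadjusted calls were 2061 with all libraries, 1143 without 7KC-IMQ replicate 1 and 619 without 7KC-IMQ replicate 2, and of the members from 5 to 10 were lower and from 2 to 4 higher. Members without overlap ranged from 6 to 13 higher and from 14 to 22 lower, since fewer values then have to separate. The shares of all genes in these settings are not given here, so these counts describe the settings and not the members. Medians ranged from -1.45 to -1.04 for the stress genes, -0.22 to 0.39 for the slow fiber genes and -0.16 to 0.21 for the energy genes. The cause was not tested.

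The replicate block left 1 gene past the threshold and 1754 unadjusted calls. Deviations of same-numbered libraries had a correlation of 0.065 over genes (2 pairs), so the numbers were not taken to pair the samples. Depth limits Tnnc1 and Myh3, which stand for 3 reads or fewer in each library, and Myl3.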
